A study of Mus musculus with 6 samples.

Results

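The proteins that carry electrons to oxygen and make ATP in mitochondria are encoded mostly in the nucleus. This report describes 76 nuclear, protein-coding genes of complexes I, II, III and V, of 52636 genes in the count table, across the cell types of the Dram2 wt/wt and Dram2 ko/ko mouse retina. They were chosen by symbol, namely those that begin with Ndufa, Ndufb, Ndufc, Ndufs, Ndufv, Uqcr or Atp5, and Sdha, Sdhb, Sdhc, Sdhd and Cyc1. For complex I the set held 7 core subunits, 29 accessory subunits and 8 assembly factors. A further 4 genes encode complex II, 9 complex III and 17 complex V, and 2 belong to the Ndufa4 family, whose founder was first placed in complex I and is now counted with cytochrome oxidase. A UMI was found for each of the 76 genes, and together they took 2.17% of all UMIs (unique molecular identifiers, 1 per captured transcript).

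Transcripts of single cells were counted with the 10x 3′ v2 kit in 6 retinas of 12-month-old male C57BL/6J mice, of which 3 were Dram2 wt/wt and 3 were Dram2 ko/ko. The ko allele was made by CRISPR/Cas9 deletion of exon 4 and is constitutive, so no cell type of a ko/ko mouse carries an intact gene. The labels list 3 retinas per genotype but their extract protocol counts 1 sample of each, so whether these are separate animals is not known and p-values measure the spread between these 6 samples, which may be technical. The design text of the series also names choroid where the labels of the samples name retina. Replicate 3 of each genotype formed batch 1, and replicates 1 and 2 formed batch 2. The authors assigned 45746 of 46375 cells to photoreceptors, interneurons, glia, mesenchymal cells or RPE (retinal pigment epithelium) cells.

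Complex I takes electrons from NADH, and complex II takes them from succinate as part of the citric acid cycle. Both pass them to quinone, complex III passes them on to cytochrome c, and the proton gradient built on the way drives complex V, the ATP synthase. Photoreceptors are among the most energy-demanding cells of the body and pack mitochondria into their inner segments, next to the light-sensing outer segments, while the RPE behind them feeds and renews them.

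The promoters of these genes are known for binding sites of nuclear respiratory factor NRF1 and of YY1, so both motifs were searched for. RefSeq promoters (250 bases before to 50 bases after the start, assembly GRCm38.p6) were matched for 63 of the 76 genes, as 68 promoters. The NRF1 core, GCATGCGC or its complement GCGCATGC, lay in 11 of the 68 promoters (16.2%), against 2.71% of all 32851 promoters of the same length. The YY1 core, AAGATGGC or GCCATCTT, also lay in 11 (16.2%), against 2.75% of all promoters. The shares were closer for the SP1 box GGGCGG (44.1% against 35.7%), the ETS core CCGGAAGT (5.88% against 3.89%) and TATAAA (8.82% against 13.6%), and the photoreceptor motif TAATCC, bound by CRX, lay in 5.88% against 7.06%. The ESRRA motif TCAAGGTCA, a site of an estrogen-related receptor, was rare but also more frequent among the members, in 2 of 68 promoters (2.94%) against 0.423%. Each motif was searched on both strands, and member promoters were richer in G and C, with a median of 59% against 52.7%, and the part of base composition in these shares was not tested. The windows below, on the strand of the gene and with the motif in capitals, are those of 6 genes with the NRF1 core and 3 with the YY1 core that are described further on.
Ndufaf5, NRF1, chr2:140170653-140170682, plus strand: gtcccgttggcGCATGCGCctaatagaaac
Ndufaf4, NRF1, chr4:24897961-24897990, plus strand: cagatgtctgcGCATGCGCctgtgcggaag
Uqcrc1, NRF1, chr9:108936668-108936697, plus strand: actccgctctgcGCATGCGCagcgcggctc
Sdhb, NRF1, chr4:140961206-140961235, plus strand: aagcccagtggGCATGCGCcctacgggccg
Uqcr11, NRF1, chr10:80406807-80406836, minus strand: atcgccttcacGCATGCGCtatacgtctgc
Atp5g2, NRF1, chr15:102671069-102671098, minus strand: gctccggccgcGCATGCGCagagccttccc
Ndufs7, YY1, chr10:80249462-80249491, plus strand: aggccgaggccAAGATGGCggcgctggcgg
Ndufa3, YY1, chr7:3617384-3617413, plus strand: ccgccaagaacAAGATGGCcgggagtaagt
Ndufb8, YY1, chr19:44555393-44555422, minus strand: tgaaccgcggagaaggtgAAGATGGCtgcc

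The first base of the motif lay 19 bases after the RefSeq start in Ndufaf5, 33 after it in Uqcrc1, and 54 before it in Sdhb. The YY1 motifs of the other 3 began 23 to 39 bases after it. The YY1 core holds the letters ATG, and the part of start codons in its share was not tested. A match of this kind describes the letters of the window and is no record of binding.

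Depth differed by cell type more than by retina. Per retina the table held 7014 to 9242 cells and 3463728 to 6563762 UMIs, of which 5961 to 8318 cells were photoreceptors, 160 to 610 interneurons, 87 to 269 glia, 31 to 50 mesenchymal cells and 10 to 25 RPE cells. The RPE values therefore rest on 17073 to 35968 UMIs per retina. Mitochondrially encoded genes took 0.405% to 0.72% of the UMIs in the 4 batch 2 retinas, but 2.75% and 3.22% in the pair from batch 1, and Malat1, a nuclear RNA, took 16.4% and 16.1% in wt/wt replicates 1 and 2 against 7.91% to 14.2% in the other 4. Dram2 itself could not check the labels, because a 3′ tag lies outside the deleted exon: its photoreceptor level was 27.2, 30.4 and 57.8 counts per 1000000 UMIs (CPM) in wt/wt replicates 1, 2 and 3 and 26.3, 33.2 and 51.3 CPM in ko/ko replicates 1, 2 and 3. The 8 photoreceptor markers, led by rhodopsin, summed to a mean of 56814 CPM in photoreceptors and of 6868 to 7979 CPM in the other 4 types, and all 8 had UMIs in each type. All 5 RPE markers were present in RPE cells (99479 CPM in sum, against 49.3 to 121 CPM elsewhere), together with 4 of 5 glial markers (14429 CPM, Slc1a3 at 0). The glial list includes Rlbp1, which the study also names for RPE cells, so that sum is not specific to glia. The cells called mesenchymal held markers of vessel cells (6970 CPM), with Col1a1 and Col3a1 at 0, and also all 6 microglial markers (9240 CPM, 2697 to 14002 CPM between retinas), so that group mixes cell kinds.

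To compare cell types, the UMIs of all cells of a type were added up within each retina, and CPM here refers to the UMIs of that cell type in that retina. The summed level of the 76 genes was highest in RPE cells, at 37728 ± 2375 CPM (SD, n = 6 retinas), and was 36031, 36051 and 35754 CPM in wt/wt replicates 1, 2 and 3 and 39089, 37620 and 41820 CPM in ko/ko replicates 1, 2 and 3. No retina of another cell type reached the lowest of these. Interneurons followed at 26766 ± 2330 CPM and lay above photoreceptors, at 20795 ± 3646 CPM, in 6 of 6 retinas, although the lowest interneuron value, 24393 CPM, was under the highest photoreceptor value, 24723 CPM. Mesenchymal cells (15964 ± 2283 CPM) and glia (15334 ± 3176 CPM) were lowest and overlapped each other. The makeup of the sum differed as well: core subunits of complex I made up 8.36 ± 0.48% of the members' UMIs in photoreceptors and 3.20 ± 0.70% in RPE cells, assembly factors 2.93 ± 0.39% and 1.26 ± 0.22%, and accessory subunits 36.1 ± 0.64% and 41.9 ± 2.1% (SD, n = 6 retinas each).

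**Figure D1:**
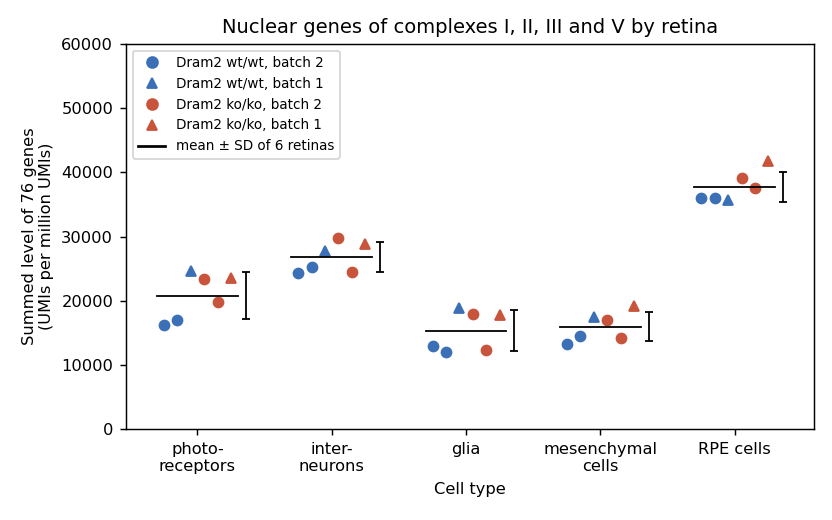
Summed level of the 76 member genes (vertical axis, CPM) in each of the 5 cell types. Each point is 1 retina, blue for Dram2 wt/wt and red for Dram2 ko/ko, with circles for batch 2 and triangles for batch 1, and the line and bar give the mean ± SD of 6 retinas. RPE cells lie highest, at 35754 to 41820 CPM, and glia and mesenchymal cells lowest.

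Each gene was then tested across cell types with edgeR's quasi-likelihood F-test on the summed counts, with the retina as a block, and differences are log2 values after TMM scaling, other type minus photoreceptors. Of the 76 genes, 72 passed the filter on low counts, and 68 of those 72 differed among the 5 types at an adjusted p under 0.05, against 94.3% of all 6290 genes tested. So nearly every gene in these sums differed by type, and a call alone says little about a member. The 4 exceptions were Ndufs8, a core iron-sulfur subunit, Sdhd, an anchor of complex II, and the assembly factors Ndufaf2 and Ndufaf7. TMM scaling also placed interneurons 0.29 and RPE cells 0.40 lower, on the log2 scale and relative to photoreceptors, than the ratio of their CPM, and glia and mesenchymal cells 0.13 and 0.15 lower. The median difference of all genes was -0.01 in interneurons, -0.13 in glia, -0.12 in mesenchymal cells and -1.03 in RPE cells.

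In interneurons, the neurons that link photoreceptors to the ganglion cells, 28 members were higher than in photoreceptors (33.1% of all genes were) and 12 were lower (32.9% of all genes), with a member median of 0.13. Accessory subunits of complex I and subunits of complex V made up most of the higher ones, with 16 of 29 and 9 of 16 tested. Neither core subunits nor assembly factors of complex I had a higher member, and 2 of 6 and 3 of 6 were lower. In glia 48 members were lower (37.0% of all genes) and 4 higher (32.0% of all genes), with a median of -0.46, and in mesenchymal cells 42 were lower (33.2% of all genes) and 5 higher (30.9% of all genes), with a median of -0.47. Of the 72 genes, 38 were lower in both, against 25.0% of all genes. In RPE cells 31 members were higher (13.6% of all genes) and 11 lower (37.7% of all genes), with a median of 0.29. There 19 of 29 accessory subunits, 8 of 16 complex V subunits and 3 of 9 complex III subunits were higher, while 0 of 6 core subunits were higher and 3 were lower. Without the filter on low counts the RPE counts were 11 higher and 27 lower, and the interneuron count of 28 higher became 14. Without it the medians were -0.70 in glia (-0.44 for all genes) and -0.89 in mesenchymal cells (-0.50 for all genes), and the RPE median turned to -0.41 (-1.32 for all genes). The RPE median was 0.44 with limma-voom (-0.32 for all genes) and 0.05 with stricter cells (-1.06 for all genes). In ko/ko retinas only it was 0.09 (-1.23 for all genes). Without the 2 retinas with the highest Malat1 share it was 0.10 (-1.17 for all genes). With 1 retina left out it was lowest without wt/wt replicate 2, at 0.02 (-1.20 for all genes). It was highest without wt/wt replicate 1, at 0.44 (-0.86 for all genes), and was 0.18 without ko/ko replicate 1 (-1.20 for all genes). The interneuron median was 0.03 with RLE factors (-0.12 for all genes) or stricter cells (-0.03 for all genes). Without the filter it was 0.01 (-0.17 for all genes). It was 0.05 in ko/ko retinas only (-0.03 for all genes) and 0.04 without the high-Malat1 retinas (-0.01 for all genes). Levels in the other 4 types were compared with photoreceptors only.

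**Figure D2:**
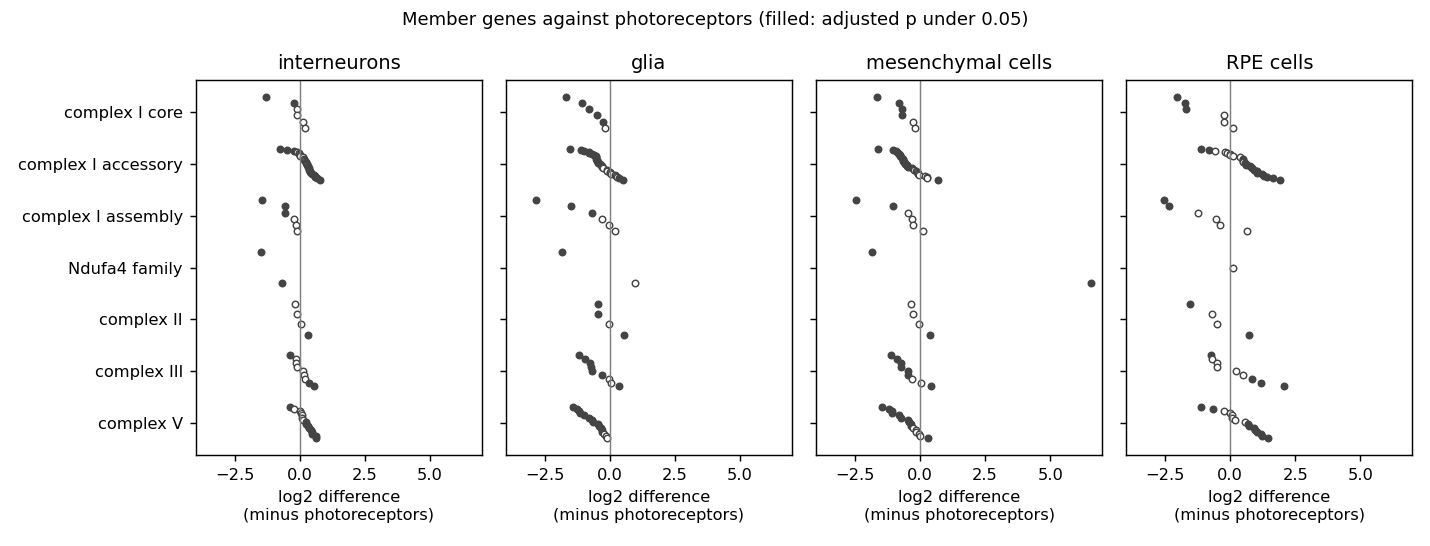
Log2 difference of each tested member gene from photoreceptors (horizontal axis, 1 panel per cell type), with genes sorted within their complex. Filled points passed an adjusted p of 0.05, and Ndufa4l2 in RPE cells, with no UMI there, is not drawn. Accessory and complex V subunits lie mostly to the right of 0 in interneurons and RPE cells and mostly to the left in glia and mesenchymal cells, whereas core and assembly genes lie mostly to the left of 0 in all 4 panels.

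Lower in each of the 4 other types than in photoreceptors were 6 of 72 members, against 16.0% of all genes. They included Ndufv1, a core subunit of complex I, Ndufa10, an accessory subunit, the assembly factors Ndufaf4 and Ndufaf5, and Uqcrc1, a core protein of complex III. Ndufaf5, which hydroxylates a core subunit during assembly, stood at 135, 127 and 189 CPM in the photoreceptors of wt/wt replicates 1, 2 and 3 and at 147, 140 and 150 CPM in those of ko/ko replicates 1, 2 and 3. In interneurons it stood at 66.4, 69.7, 76.1, 61.0, 60.4 and 67.8 CPM in the same order, and the highest value in any other type was 88.7 CPM, in RPE cells of ko/ko replicate 2. Photoreceptor values of all 6 retinas thus lay above every value of the other types. Its difference was -1.44 (SE 0.12, adjusted p = 3.6e-18) in interneurons, -2.83 (SE 0.19) in glia, -2.45 (SE 0.27) in mesenchymal cells and -2.55 (SE 0.45) in RPE cells, the last from 5 UMIs. Ndufaf4, which helps build the quinone module, fell by 0.57 (SE 0.11) in interneurons and by 1.49 (SE 0.17) in glia. For Ndufa10 the fall was 0.76 (SE 0.11) and 1.54 (SE 0.14), from 242, 274, 326, 311, 283 and 344 CPM in photoreceptors to 192, 192, 204, 208, 216 and 262 CPM in interneurons, which overlap. Ndufv1, which binds NADH, had like CPM in photoreceptors (217 ± 37.1 CPM) and interneurons (224 ± 25.6 CPM), and its interneuron difference of -0.23 (SE 0.11, adjusted p = 0.046) was smaller than the 0.29 that the scaling adds. Without ko/ko replicate 1 or 3 it no longer passed (-0.24 and -0.25). In glia it stood at 117 ± 43.6 CPM and fell by 1.06 (SE 0.14). Uqcrc1 fell by 0.39 (SE 0.10) in interneurons and by 0.76 (SE 0.12) in glia. Its CPM overlapped between photoreceptors (315 ± 33.8 CPM) and interneurons (294 ± 26.6 CPM), and most of the interneuron difference is again the 0.29 of the scaling.

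Of the remaining core subunits and assembly factors picked by their interneuron difference, Ndufv2 (0.11, SE 0.10), Ndufs7 (0.19, SE 0.10), Ndufaf3 (-0.13, SE 0.11) and Ndufaf7 (-0.10, SE 0.14) did not pass the test there, and with 1 retina left out they reached 0.024 (without wt/wt replicate 2), 0.10 (ko/ko replicate 3), -0.24 (ko/ko replicate 3) and -0.15 (wt/wt replicate 2). Among accessory subunits the extremes were Ndufc2 (0.79, SE 0.10) and Ndufs5 (0.67, SE 0.11) at the higher end and, beside Ndufa10, Ndufb11 (-0.49, SE 0.11) at the lower end. All of these passed. A near-identical pseudogene held 66.1% of the UMIs of gene plus copy for Ndufs5 and 27.6% for Ndufb11, and their origin was not tested. Ndufc2, of the membrane arm, stood at 187, 191, 324, 248, 234 and 321 CPM in photoreceptors and at 465, 493, 594, 480, 440 and 683 CPM in interneurons, and the values did not overlap.

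All 4 complex II subunits were described. Sdhb, the iron-sulfur subunit, was 1 of 2 members higher in every other type than in photoreceptors, as 4.21% of all genes were, the other being Uqcr11. It stood at 108, 116, 126, 148, 125 and 137 CPM in photoreceptors and at 180, 185, 178, 224, 162 and 217 CPM in interneurons. The groups did not overlap, and the differences were 0.31 (SE 0.10, adjusted p = 0.0047) in interneurons, 0.54 (SE 0.12) in glia, 0.37 (SE 0.16, adjusted p = 0.041) in mesenchymal cells and 0.73 (SE 0.24) in RPE cells. Sdha, the flavin subunit that oxidises succinate, went the other way and was lower in glia (-0.44, SE 0.12) and RPE cells (-1.53, SE 0.30, from 17 UMIs), with values of -0.09 (SE 0.10) in interneurons and -0.28 (SE 0.15) in mesenchymal cells that did not pass. The anchor Sdhc passed in glia alone (-0.47, SE 0.16). Differences of Sdhd ran from -0.50 (SE 0.44) in RPE cells to -0.04 (SE 0.24) in mesenchymal cells, and none passed. The RPE value was -0.92 without ko/ko replicate 1 and -0.21 without wt/wt replicate 3, the interneuron value of -0.20 became -0.35 without wt/wt replicate 3, and that of Sdha became -0.18 without ko/ko replicate 1. The 4 subunits of this complex did not share an order of levels across types. The higher level of Sdhb was the least firm of these calls: it was lost in interneurons without ko/ko replicate 3 (0.25, adjusted p = 0.051), in mesenchymal cells without any 1 retina but wt/wt replicate 3 (0.28 to 0.39), and in RPE cells without wt/wt replicate 2 (0.42), ko/ko replicate 1 (0.62) or ko/ko replicate 2 (0.55).

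In complex III, Uqcr11, a small subunit, had the highest difference of any member in RPE cells, 2.06 (SE 0.14, adjusted p = 3.7e-21). It stood at 1759, 1616 and 1390 CPM in RPE cells of wt/wt replicates 1, 2 and 3 and at 1655, 1952 and 1464 CPM in those of ko/ko replicates 1, 2 and 3, against 223 to 390 CPM in photoreceptors. It has pseudogene copies that took 20.9% of the UMIs of gene plus copies. RPE values lay above those of every other type, whose highest was 737 CPM, in interneurons. Uqcrc2, the other core protein, was higher in interneurons (0.34, SE 0.10) and Uqcrq, another small subunit, was not separable there (-0.16, SE 0.12).

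Other members that stood out in RPE cells were chosen after their values were seen. Ndufa3, a membrane-arm subunit of complex I, stood at 1384, 1504, 1557, 1521, 1464 and 1523 CPM there, against 255 to 381 CPM in photoreceptors, a difference of 1.91 (SE 0.14, adjusted p = 2.8e-19). Ndufs5 (1.63, SE 0.24), Atp5k (1.47, SE 0.15) and Ndufv3 (1.42, SE 0.14) were also higher. Of the UMIs of gene plus copy, a near-identical pseudogene held 66.1% for Ndufs5 and 8.53% for Atp5k. At the lower end, Ndufs1, the 75 kDa iron-sulfur subunit (-2.03, SE 0.55), had 4 UMIs in RPE cells, all in wt/wt retinas, and 0 in the 61973 UMIs of the 3 ko/ko retinas, which allows up to 48.4 CPM by counting error alone, against 84.2 ± 7.4 CPM in photoreceptors. Ndufv1 (-1.72, SE 0.35), Ndufb8 (-1.12, SE 0.21) and Atp5b, the beta subunit of the catalytic head (-1.11, SE 0.17), were lower too. Ndufb8 shares a stretch of 144 bases at 97.9% identity with Gm20538, so its counts are uncertain.

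Members with a positive difference in RPE cells, whether or not they passed, were mostly those with shorter transcripts. Length was the median over all annotated protein-coding transcripts of a gene. This gave 651 bases for Ndufs1, too short to encode that subunit, so some genes may fall on the wrong side of the split. When the 72 genes were split at their median length of 713.5 bases, 27 of 36 shorter members had a positive difference in RPE cells, with a median of 0.61, and 16 of 36 longer ones, with a median of -0.25. The same split of all protein-coding genes tested gave medians of -0.12 for 574 shorter and -1.15 for 5177 longer genes. Spearman's rho between length and difference was -0.47 over the 72 members and -0.22 over all 5751 genes, as a description across genes that share the same libraries. In interneurons rho was -0.24 and -0.01, and in glia 0.03 and -0.06. The part of transcript length in the RPE levels was not tested.

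**Figure D3:**
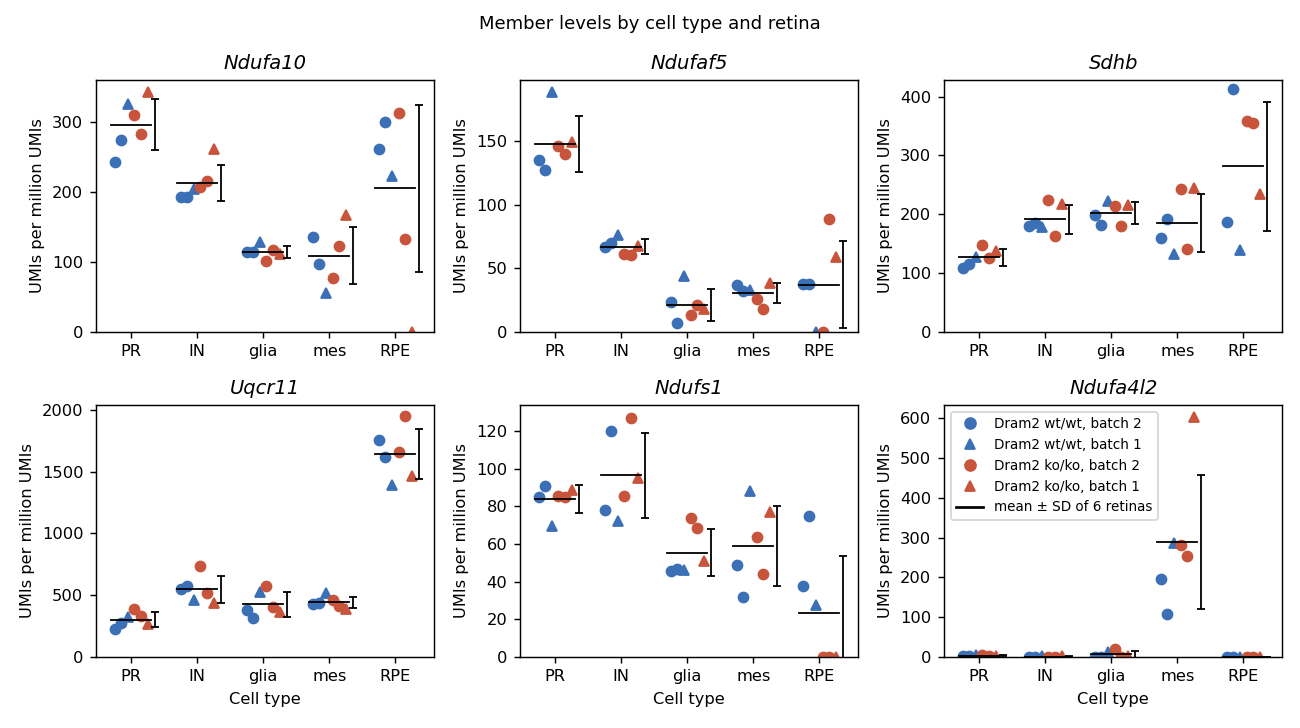
Levels of 6 member genes (vertical axis, CPM) by cell type (PR, photoreceptors; IN, interneurons; mes, mesenchymal cells). Points are retinas, coloured by genotype and shaped by batch, and the line and bar give the mean ± SD of 6 retinas. Ndufa10 and Ndufaf5 have their highest mean in photoreceptors, Sdhb lowest there, Uqcr11 highest in RPE cells, and Ndufa4l2 is near 0 outside mesenchymal cells.

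The Ndufa4 family divided between cell types. Ndufa4 was lower than in photoreceptors in interneurons (-0.70, SE 0.12), glia (-1.84, SE 0.13) and mesenchymal cells (-1.87, SE 0.15), and its value in RPE cells was 0.09 (SE 0.14, adjusted p = 0.61). In photoreceptors it stood at 1074, 1223, 2157, 1848, 1536 and 2129 CPM. Ndufa4l2, a relative induced by low oxygen, passed the filter on low counts through the mesenchymal sums where it is high, so its levels are given as a description with no test, although it is among the counts above. In mesenchymal cells it stood at 196, 107 and 287 CPM in wt/wt replicates 1, 2 and 3 and 282, 254 and 604 CPM in ko/ko replicates 1, 2 and 3. Photoreceptors had 1.67 to 4.15 CPM, glia 0 to 20.1 CPM from 10 UMIs, interneurons 5 UMIs in all, and RPE cells 0 of 151269 UMIs, which allows up to 19.8 CPM. Ndufa4l2 made up 34.6 ± 10.7% of the family's UMIs in mesenchymal cells (SD, n = 6 retinas) and 0.158 ± 0.053% in photoreceptors. All of its 150 mesenchymal UMIs lay in the 77 of 246 cells with a UMI of Pdgfrb, Rgs5 or Acta2, markers of pericytes and smooth muscle, where 42 cells had 1 or more. The other 169 cells held 0 in 308466 UMIs, which allows up to 9.73 CPM. Median depth was 2254 and 1632 UMIs per cell, and this split was chosen after the values were seen.

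The ring of complex V is built from subunit c, which Atp5g1, Atp5g2 and Atp5g3 encode as the same mature protein. Atp5g3 was higher in interneurons (0.64, SE 0.11) and lower in glia (-0.82, SE 0.13) and mesenchymal cells (-1.20, SE 0.18). Atp5g1 was lower in glia (-1.17, SE 0.16) and mesenchymal cells (-1.07, SE 0.23) and higher in RPE cells (0.70, SE 0.25, a call lost without ko/ko replicate 1, at 0.64, or 2, at 0.48), and its interneuron value of -0.21 (SE 0.11) did not pass. Atp5g2 was low throughout, with 8 UMIs in RPE cells, and passed in glia alone (-1.01, SE 0.34). Elsewhere in the complex, Atp5h of the peripheral stalk (0.61, SE 0.10) and Atp5l of the membrane part (-0.39, SE 0.12) marked the ends of the interneuron range and both passed. UMIs were also counted on near-identical pseudogenes of both, and their origin was not tested. With those UMIs added Atp5l was at -0.09 (adjusted p = 0.46). Within the family, Atp5g3 gave 57.0%, 58.0%, 53.2% and 57.0% of the photoreceptor UMIs in wt/wt replicates 1 and 2 and ko/ko replicates 1 and 2, the retinas of batch 2, and 75.4% and 77.6% in wt/wt and ko/ko replicate 3, those of batch 1. In interneurons the shares were 65.3% to 75% and 83.5% and 85.7%. In both types the batch 1 retinas of either genotype lay above all 4 retinas of batch 2.

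The batches were therefore compared directly, with genotype in the model. In photoreceptors 4 of 76 members were higher in batch 1 (2.39% of all genes) and 0 lower (3.11% of all genes), in interneurons 1 of 72 was higher (4.80% of all genes) and 4 lower (7.65% of all genes), and in glia 1 of 68 was higher (1.44% of all genes) and 0 lower (4.09% of all genes). Atp5g3 was the one higher in each, by 0.93 (SE 0.16, adjusted p = 0.023), 0.59 (SE 0.16, adjusted p = 0.024) and 0.76 (SE 0.22, adjusted p = 0.045). The other 3 in photoreceptors were Ndufb5 (0.73), Ndufc2 (0.63) and Atp5c1 (0.59). In interneurons the lower ones were Ndufb4 (-1.29, SE 0.26, adjusted p = 0.0022), Atp5g1 (-0.97), Ndufab1 (-0.87) and Atp5h (-0.65). Atp5g1 in photoreceptors (-0.58, SE 0.20, adjusted p = 0.12, and between -0.85 without wt/wt replicate 3 and -0.32 without ko/ko replicate 3) and Ndufa12 in glia (-0.54, SE 0.22, adjusted p = 0.17) had the smallest p of the lower members there and did not pass. Without ko/ko replicate 1 the calls rose to 53 of 75 in photoreceptors, 25 of 72 in interneurons and 22 of 69 in glia, and those of all genes to 32.9%, 27.9% and 18.5%. Leaving out any other single retina gave 0 in photoreceptors, 0 to 4 in interneurons and 0 in glia, and the calls of Atp5g3 were lost each time in all 3 types (0.73 to 1.13, 0.50 to 0.74 and 0.63 to 1.03 over the 6 fits), so these counts rest on which retina is absent. Ndufb4 lost its call without ko/ko replicate 3 (-1.16, adjusted p = 0.064). In photoreceptor sums ko/ko replicate 1 stood apart from the other retinas of batch 2. Chi-square per degree of freedom was 17.3, 16.8 and 11.8 against wt/wt replicates 1 and 2 and ko/ko replicate 2. Among those retinas it was 1.67 to 3.86. The part of this retina in the batch calls was not tested.

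Several of these genes have near-identical pseudogenes on which UMIs were also counted. Whether those UMIs came from the gene or from the copy was not tested. For 22 members, 40 pseudogenes with at least 95% identity held 46971 UMIs, equal to 7.84% of the 599406 UMIs of all members. The pseudogene share of gene plus copies was 66.1% for Ndufs5, 56.7% for Ndufs3, 53.0% for Ndufb4, 45.6% for Atp5h and 42.0% for Atp5g1. For Atp5g1 it was 52.3% in batch 1 and 35.3% in batch 2, and for Atp5g2 14.0% and 42.8%. With the copies' UMIs added, a choice made after seeing the data, the photoreceptor batch difference of Atp5g1 changed from -0.58 to -0.12, while that of Atp5g3 stayed at 0.93 and that of Ndufb4 in interneurons went from -1.29 to -1.22. Batch calls were then 3 in photoreceptors and 4 in interneurons.

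**Figure D4:**
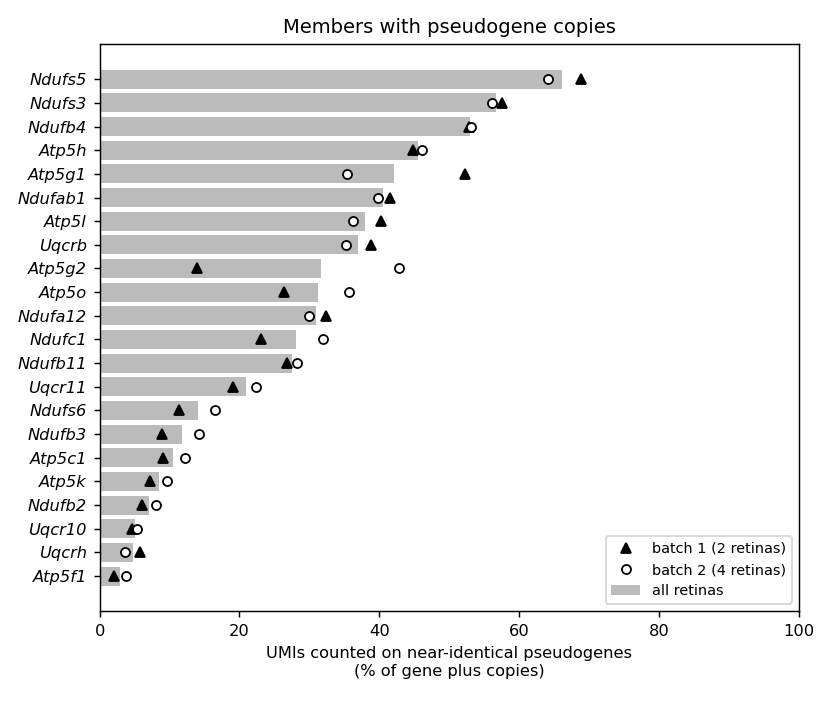
Share of UMIs counted on near-identical pseudogenes (horizontal axis, percent of gene plus copies) for the 22 members that have them. Bars are all 6 retinas, triangles batch 1 and circles batch 2. Ndufs5 leads with 66.1%, and Atp5g1 and Atp5g2 differ most between the batches, in opposite directions.

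The comparison of Dram2 ko/ko with wt/wt asks whether loss of Dram2 changes these genes in any cell type. By edgeR's quasi-likelihood test with Benjamini-Hochberg adjustment, 0 of 75 members passed in photoreceptors, 0 of 72 in interneurons, 0 of 67 in glia, 0 of 54 in mesenchymal cells and 0 of 35 in RPE cells, where 0% of all genes passed in each type. At an unadjusted p under 0.05 the members also numbered 0 in each type. All genes numbered 109 (0.835%), 86 (1.12%), 51 (1.23%), 150 (8.74%) and 11 (3.57%) in the same order. A count of 0 members in photoreceptors, interneurons and glia is therefore near what all genes showed. In these types the share of all genes lay under the cutoff itself, so a count of 0 does not show that the members are unchanged. The model held genotype and no batch term, and with batch as a covariate 0 members were called as well. Limma-voom and DESeq2 each called 0 members in each type. The study's own limma-voom test did report genes that differ by genotype in interneurons, mesenchymal cells and RPE cells, none of them a member. Those in interneurons include Uqcrh-ps1, named as a pseudogene of the member Uqcrh, and mt-Nd3 of the mitochondrial genome, both lower in ko/ko. The photoreceptor differences of the members ranged from -0.08 to 0.35 on the log2 scale.

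In photoreceptors the difference with the smallest p upward was that of Ndufa11, a membrane-arm subunit, at 229, 231 and 266 CPM in wt/wt replicates 1, 2 and 3 and 332, 256 and 288 CPM in ko/ko replicates 1, 2 and 3. The groups overlapped, and the difference was 0.30 (SE 0.18, adjusted p = 0.998). Downward it was Ndufaf1, at -0.08 (SE 0.21). In interneurons Ndufs7, the core subunit next to quinone, stood at 342, 370 and 392 CPM in wt/wt and 460, 453 and 452 CPM in ko/ko replicates 1, 2 and 3. These did not overlap, yet the difference of 0.32 (SE 0.18, adjusted p = 1.00) did not pass, and the smallest p downward belonged to Ndufaf4 (-0.21, SE 0.26; -0.51 without ko/ko replicate 3 and -0.02 without ko/ko replicate 1). In glia the smallest p downward belonged to Atp5l (-0.63, SE 0.45; -1.06 without ko/ko replicate 1, and it could be tested in 3 of the 6 fits that leave out 1 retina).

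In mesenchymal cells Ndufs8 stood at 73.6, 128 and 121 CPM in wt/wt replicates 1, 2 and 3 and at 179, 167 and 231 CPM in ko/ko replicates 1, 2 and 3 (0.77, SE 0.35, adjusted p = 0.57), and Ndufa8 at 319, 213 and 331 against 179, 202 and 167 CPM (-0.68, SE 0.32, adjusted p = 0.57). Neither pair overlapped and neither passed. Markers of cell kinds also differed between these retinas. The 6 microglial markers summed to 14002, 13735 and 10146 CPM in wt/wt and 5849, 9012 and 2697 CPM in ko/ko replicates 1, 2 and 3. These sums do not overlap. Of all genes tested in these cells, 6.52% likewise lay lower in every ko/ko retina. In the genotype test here 0 of the 6 markers passed, whereas the study's own limma-voom test reported all 6 as lower in ko/ko. The 5 glial markers summed to 5743, 1718 and 1610 against 8883, 11467 and 2016 CPM. The 7 vessel-cell markers summed to 4614, 4856 and 9385 against 7577, 6207 and 9181 CPM, and both of these lists overlapped between genotypes. The 4 blood markers summed to 7259 CPM in ko/ko replicate 2 and to 0 to 51.2 CPM in the other 5 retinas. The part of these markers in the mesenchymal differences was not tested. In RPE cells the 2 were Atp5d of the rotating stalk (0.62, SE 0.32) and Ndufb9 (-0.68, SE 0.36), both with an adjusted p of 0.91. That of Atp5d was 0.31 without wt/wt replicate 3 and 0.85 without wt/wt replicate 2. Ndufb9 rested on 6 to 20 UMIs per retina.

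Values of ko/ko above all values of wt/wt were found for 0 of 75 tested members in photoreceptors (1.83% of all genes), 4 of 72 in interneurons (2.59%), 2 of 67 in glia (3.63%), 7 of 54 in mesenchymal cells (9.26%) and 2 of 35 in RPE cells (6.17%). Values below were found for 0 (3.72% of all genes), 0 (3.62%), 0 (2.25%), 1 (6.52%) and 2 (4.55%). The member counts are small, and the number of members tested differs between types, so the counts do not set any type apart.

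The members did lean one way in photoreceptors, with 69 of 75 differences above 0 and a median of 0.23, against -0.01 for all genes. The 8 assembly factors of complex I did not share this, with a median of -0.01. Over all members the median was 0.12 without wt/wt replicate 1 and 0.42 without wt/wt replicate 3. Other lists had photoreceptor medians of the same sign, namely 0.26 over 14 cytochrome oxidase genes, 0.21 over 7 carriers and pores, 0.18 over 12 citric acid cycle genes and 0.18 over 8 photoreceptor markers, whereas 5 glial markers had -0.23, 3 microglial markers -0.55 and 4 blood markers -0.78, and of the mitochondrial lists the 13 genes of the mitochondrial genome had -0.11 and 8 regulators -0.03. Their part in the lean was not tested. The lean was not the same in both batches. Within batch 2, where each genotype has 2 retinas, 70 of 75 members were higher in ko/ko, with a median of 0.36, whereas between the single retinas of batch 1, 30 of 75 were, with a median of -0.03. The 2 wt/wt retinas of batch 2 are also those with the highest Malat1 share. Within batch 2 the Malat1 share and the genotype therefore cannot be told apart. With batch as a covariate the median was 0.25 (69 of 75 above 0). Without those 2 retinas, a choice made after seeing the data, it was -0.12 (19 of 76), but the wt/wt group is then 1 retina, of batch 1, set against ko/ko retinas of both batches. Between retinas of the same genotype the batch 1 wt/wt retina stood above the mean of the other 2 with a median of 0.52 (67 of 75 members), and the batch 1 ko/ko retina with a median of 0.16 (55 of 75). Medians of the genotype difference were 0.10 in interneurons, 0.07 in glia, 0.13 in mesenchymal cells and 0.07 in RPE cells. Within batch 2 and batch 1 they were 0.13 and 0.04 in interneurons, 0.14 and -0.09 in glia, 0.09 and 0.11 in mesenchymal cells and 0.05 and 0.03 in RPE cells. Against that single wt/wt retina they were 0.0066 in interneurons (39 of 75 above 0), -0.15 in glia (21 of 72), -0.14 in mesenchymal cells (24 of 59) and 0.04 in RPE cells (21 of 40). With 1 retina left out the interneuron median was 0.08 at its lowest, when this was ko/ko replicate 3, and 0.17 at its highest, when it was ko/ko replicate 2. In glia it lay between -0.02 and 0.23 and in mesenchymal cells between -0.0043 and 0.18, in both lowest in the absence of wt/wt replicate 1 and highest in that of wt/wt replicate 3. In RPE cells it lay between -0.01, in the absence of wt/wt replicate 1, and 0.18, in that of ko/ko replicate 2. Whether the genotype difference varied between cell types was tested as an interaction, which called 0 of 72 members and 4 of all 6290 genes (0.0636%), of which 3 were blood markers, with the smallest member p for Ndufb9 (0.032 unadjusted, adjusted p = 1.00).

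**Figure D5:**
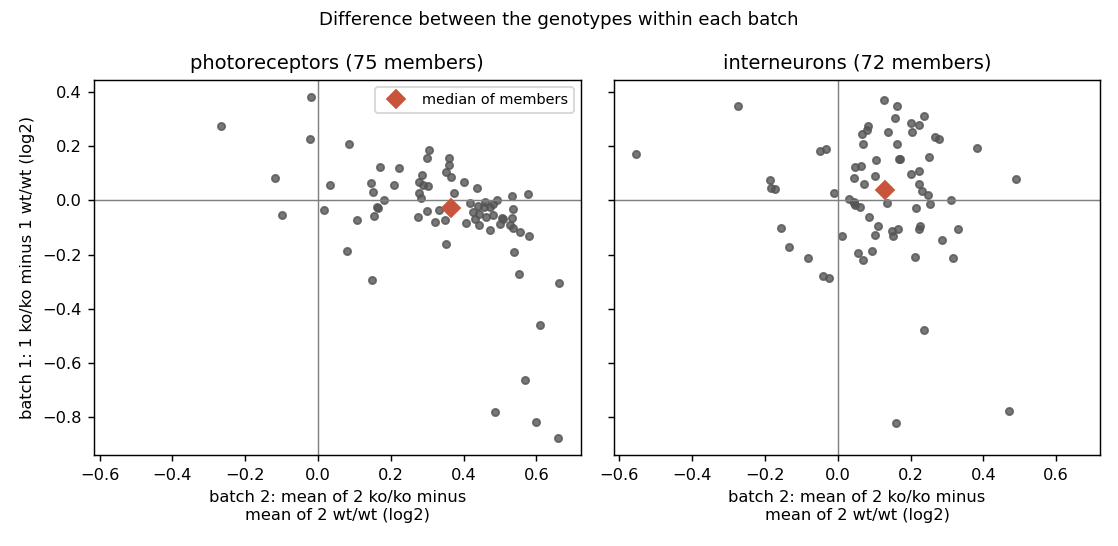
Genotype difference of each tested member (log2, ko/ko minus wt/wt) within batch 2 (horizontal axis, mean of 2 retinas each) and within batch 1 (vertical axis, 1 retina each), for photoreceptors and interneurons. The diamond is the median of the members. In photoreceptors the points spread to the right of 0 (median 0.36) but lie about 0 on the vertical axis (median -0.03).

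Neighbouring pathways gave a frame for these values. Of 14 tested nuclear genes of cytochrome oxidase, complex IV of the chain, 10 were higher and 2 lower in interneurons than in photoreceptors, 2 and 8 in glia, 2 and 5 in mesenchymal cells, and 9 and 2 in RPE cells. The shares of all genes, higher and lower, were 33.1% and 32.9% in interneurons, 32.0% and 37.0% in glia, 30.9% and 33.2% in mesenchymal cells and 13.6% and 37.7% in RPE cells. Of 10 tested genes of the mitochondrial genome, which encode further subunits of complexes I, III, IV and V, 6 were higher and 0 lower in interneurons, 0 and 9 in glia, 0 and 8 in mesenchymal cells and 0 and 9 in RPE cells, with an RPE median of -1.49 against the 0.29 of the members. That list also moved with batch, with 10 of 13 genes higher in batch 1 photoreceptors. Of 11 tested citric acid cycle genes, 5 were higher and 2 lower in interneurons, 1 and 6 in glia, 0 and 5 in mesenchymal cells, and 0 and 4 in RPE cells. Of 6 tested carriers and pores of the inner and outer membrane, 3 were higher and 1 lower in interneurons, 3 and 2 in glia, 0 and 5 in mesenchymal cells and 1 and 4 in RPE cells. Of 8 regulators of mitochondrial genes, 3 passed the filter on low counts. Ppargc1a, the coactivator PGC-1 alpha, stood at 94.0 ± 9.2 CPM in photoreceptors and 28.1 ± 10.2 CPM in interneurons. It passed that filter through the photoreceptor sums where it is high, so these levels are given as a description with no test. Its relative Ppargc1b fell by 0.68 (SE 0.13) in interneurons. Yy1 passed in mesenchymal cells alone (0.80, SE 0.22).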

How the data were processed

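Retinas were dissociated with papain and sequenced with the 10x 3′ v2 kit. The deposited table holds raw UMI counts per gene and cell, which the authors made with Cell Ranger 3.1.0 (submitters' processing notes) on mm10/GRCm38, with a cell type for each cell. Gene names were paired for 52489 of 52636 genes. Cells are named by number, so barcodes shared between libraries could not be counted. No doublets were removed in the main analysis, and leaving out the 5% of cells with most UMIs was an alternative.

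Counts of all cells of a type were added up within each retina and tested with edgeR 4.0.16 (TMM scaling, filterByExpr with a minimum count of 10, quasi-likelihood F-test, Benjamini-Hochberg adjusted p under 0.05 over all genes tested), where the study's methods used limma-voom. The fits were tested on simulated data with the same spread for all genes. Apart from genes changed on purpose, no difference between retinas or batches was simulated. That setting is simpler than these data and says little about small genotype differences. Alternatives were limma-voom 3.58.1, DESeq2 1.42.0, other scaling, filters and cells, batch, and leaving out each retina. Pseudogene copies were found with blastn 2.17.0 (at least 95% identity over 100 bases and 50% of the transcript). Intervals and limits for counts of 0 (3 counts) cover counting error only. Members and lists were chosen with earlier results of these data known. The text names the members with the smallest genotype and batch p in each direction, the 2 highest and 2 lowest interneuron differences per group, complex II, the Atp5g and Ndufa4 families, and the highest difference in glia, mesenchymal and RPE cells. A gene that this rule would name is not reported here.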

Additional observations from a re-analysis of the deposited data

How the results depend on the processing

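No member was called between the genotypes in any of 90 alternative counts. Of 289 alternative counts, 246 stayed within 1.5 times. Members called between batches in glia (1) were 3 with no filter on low counts and 2 with limma-voom, without mitochondrial genes and Malat1, with stricter cells, without the cells with most UMIs and without a genotype term; in interneurons (5) they were 8 with limma-voom and 8 with no filter, and in photoreceptors (4) 18 with no filter. Members higher in photoreceptors than in RPE cells (11) were 27 with no filter and 7 in wt/wt retinas only. Members higher than in photoreceptors were, in glia (4), 0 with no filter and 1 in ko/ko retinas only; in interneurons (28), 14 with no filter, 17 without the 2 retinas with the highest Malat1 share and 12 in ko/ko retinas only; in mesenchymal cells (5), 1 with no filter, 2 with stricter cells, 1 without those 2 retinas, 3 in wt/wt and 1 in ko/ko retinas only; in RPE cells (31), 11 with no filter. Leaving out 1 retina gave 0 to 22 batch calls in glia, 0 to 25 in interneurons and 0 to 53 in photoreceptors, and 2 to 5 members higher in mesenchymal cells. The cause of these changes was not tested.

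Of 1109 alternative values of 35 named genes, 983 kept direction and call, 66 lost and 30 gained a call, and 30 changed sign, 1 of them after a call: Sdhb in mesenchymal cells, -0.032 with no filter. The others were not called. With no filter, Atp5g2 in RPE cells was at -0.023, Atp5g3 in RPE cells at -0.53, Ndufa4 in RPE cells at -0.51 and Sdhc in interneurons at -0.029. With stricter cells, Atp5g3 and Ndufa4 in RPE cells were at -0.20 and -0.0032, Sdhc in interneurons at -0.082 and the genotype difference of Ndufaf1 at 0.038. Without the high-Malat1 retinas, Atp5g2 and Ndufa4 in RPE cells were at -0.48 and -0.22, Sdhc in interneurons at -0.10 and Ndufaf1, against a single wt/wt retina, at 0.13. Without the cells with most UMIs, Atp5g2 in mesenchymal cells was at 0.061 and Ndufa4 in RPE cells at -0.024. With limma-voom, Ndufa4l2 in RPE cells was at 2.62 with no UMI there, Sdhc in interneurons at -0.0078 and Sdhd in mesenchymal cells at 0.046. Sdhc in interneurons was at -0.026 with RLE factors and -0.029 in ko/ko retinas only, Sdhc in mesenchymal cells at 0.15 in wt/wt retinas only, Sdhd in glia at 0.028 without mitochondrial genes and Malat1, and Sdhd at 0.068 in mesenchymal and 0.090 in RPE cells of ko/ko retinas only. Over the fits that leave out 1 retina, Atp5g3 in RPE cells ran from -0.10 to 0.29, Ndufa4 there from -0.10 to 0.30, Ndufaf1 from -0.18 to 0.013, Sdhc in interneurons from -0.10 to 0.11 and Sdhd in mesenchymal cells from -0.15 to 0.040.

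With the replicate number as a block, 0 members were called between genotypes in each type. In interneurons each same-numbered pair of retinas correlated above 0.1 (0.105, 0.34 and 0.58, with 5 of 6 retinas closest to their own number). In the other 4 types the pair numbered 1 did not (-0.07 in photoreceptors and glia, 0.09 in mesenchymal and RPE cells). Number 3 marks batch 1 in both genotypes. RPE depth (17073 to 35968 UMIs per retina) limits its low genes most.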
